A study of Homo sapiens and Mus musculus with 74 samples.

Results

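Voltage-gated sodium and calcium channels were followed through RNA, ribosome footprints and translation efficiency in the brains of mice that lack the ribosomal protein RPL41. The group held 9 genes, Scn1a, Scn2a, Scn8a, Cacna1a, Cacna1b, Cacna1c, Cacna1d, Cacna1e and Cacna1g, of the 22484 protein-coding genes that the mouse count table covers. Each gene encodes a pore-forming alpha subunit, and each was represented by the transcript with the longest annotated protein, between 1988 residues for Scn8a and 2381 residues for Cacna1g. All 9 genes were found by symbol in the GENCODE M21 annotation and chosen by family, not by a threshold on a measured value. WT mice were compared with Rpl41 KO (Rpl41-/-) mice, which carry a deletion of the whole Rpl41 coding sequence made in C57BL/6J zygotes with CRISPR-Cas9. The animals were young adult males, and the deletion was constitutive, so every brain cell type lacked the gene. Brain and kidney were each measured by poly(A)-selected RNA-seq and by Ribo-seq, which sequences the mRNA fragments that a ribosome shields from nuclease, with 3 libraries for each tissue, genotype and assay. The p-values below cover the spread between these libraries, and the labels do not say which of them came from 1 animal.

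The alpha subunit of these channels folds into 4 homologous domains in 1 long chain, with a voltage sensor in each domain and a pore at their centre, and auxiliary subunits attach to it. Scn1a, Scn2a and Scn8a encode the Nav1.1, Nav1.2 and Nav1.6 sodium channels, which start and carry action potentials at the axon initial segment and along the axon. Cacna1a, Cacna1b and Cacna1e encode the Cav2 channels of the P/Q, N and R types, and the P/Q and N types trigger transmitter release at nerve endings. Cacna1c and Cacna1d encode L-type channels, which couple activity to gene transcription and pacemaking, and Cacna1g encodes a T-type channel of low threshold that supports burst firing in the thalamus. Translation efficiency (TE) is the footprint count of a gene relative to its RNA count.

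The coding sequences carry the relationship between the families in the pore loop of the third domain, where a single residue marks the ion that passes. The windows below, for 8 of the genes, give the codon of that residue in capitals within 27 bases of the coding strand, 5′ to 3′, from the GENCODE M21 transcripts of the GRCm38 genome.
Scn1a: gttgccacatttAAGggctggatggat
Scn2a: gtagccacatttAAAggatggatggat
Scn8a: gtggcaaccttcAAAggctggatggac
Cacna1b: gtgtccacgggaGAGgggtggcccatg
Cacna1e: gtctctacagggGAAggatggcctcag
Cacna1c: gtctccaccttcGAAgggtggccagag
Cacna1d: gtctcaacttttGAGggctggcccgcg
Cacna1g: ctggcctccaagGATggctgggttgac
The capitals spell lysine in the 3 sodium channels, glutamate in the 4 high-voltage calcium channels shown and aspartate in the T-type channel. The codon lies at chr2:66287765-66287767 (minus strand) in Scn1a, chr2:65743074-65743076 (plus) in Scn2a and chr15:101031719-101031721 (plus) in Scn8a. For the Cav2 genes shown it lies at chr2:24651092-24651094 (minus) in Cacna1b and chr1:154444883-154444885 (minus) in Cacna1e. For the others it lies at chr6:118656124-118656126 (minus) in Cacna1c, chr14:30100708-30100710 (minus) in Cacna1d and chr11:94426471-94426473 (minus) in Cacna1g. Each codon is exonic, and in all of these genes but Cacna1g an exon junction falls inside the window. Over the whole proteins, Scn1a and Scn2a were identical at 88.1% of 1992 aligned residues, Cacna1c and Cacna1d at 69.5% and Cacna1a and Cacna1b at 66.0%. A sodium and a calcium channel shared at most 28.9% (Scn8a and Cacna1c).

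This likeness bears on how reads can be assigned, since footprints are about as long as the stretches that related channels share and the alignment allowed a read to map to several places. Of the 28-base stretches of the Scn2a coding sequence, 19.66% also occurred in a transcript of another gene, mostly Scn3a and Scn1a. The share was 15.12% in Scn1a and 1.99% in Scn8a. It was 1.64% in Cacna1g, which shares sequence with the other T-type genes Cacna1h and Cacna1i, and at most 0.75% (Cacna1d) in the other calcium channels. Counts of Scn1a and Scn2a are therefore uncertain by whatever reads of each other, Scn3a and Scn9a they hold. In WT brain, Scn3a had 8.85 ± 1.48 footprint CPM per kb of coding sequence (SD, n = 3) and Scn9a 3.32 ± 0.591, against 24.9 ± 3.48 for Scn2a.

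The genes are spread over 7 autosomes, and Scn1a, Scn2a and Cacna1b lie on chromosome 2. In GRCm38, Scn1a spans chr2:66270781-66410064 (minus strand, 27 exons in the representative transcript) and Scn2a chr2:65620771-65767447 (plus, 27 exons). Scn8a spans chr15:100870904-101045938 (plus, 27 exons). The Cav2 genes have 47 exons each and lie at chr8:84415364-84640246 (plus) for Cacna1a, chr2:24606375-24763047 (minus) for Cacna1b and chr1:154390731-154726356 (minus) for Cacna1e. Cacna1c lies at chr6:118593892-119107975 (minus, 48 exons), Cacna1d at chr14:30042067-30353009 (minus, 49 exons) and Cacna1g at chr11:94408391-94474100 (minus, 38 exons). The coding sequences had between 45.2% (Scn1a) and 59.1% (Cacna1a) G and C, and their lengths lay between 5964 bases in Scn8a and 7143 bases in Cacna1g. The 3′ UTRs differed far more, with 7662 bases in Cacna1e, 5250 in Scn8a, 2618 in Scn2a and 2104 in Scn1a but 6 in Cacna1d.

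The libraries held between 84.4 and 123.7 M (1 M is 1000000) counts in brain RNA-seq, 9.5 and 35.9 M in brain Ribo-seq, 45.0 and 55.1 M in kidney RNA-seq and 11.0 and 42.5 M in kidney Ribo-seq. A read can be counted for each transcript it overlaps, so these totals exceed the number of reads. The genotypes matched their labels, with Rpl41 RNA in brain between 91.2 and 129 CPM (counts scaled to 1000000 per library after TMM scaling) in WT and between 0.0531 and 0.153 CPM in KO. The tissues matched theirs as well, since 8 neuron markers summed to between 1540 and 2130 CPM in brain RNA-seq and to between 1.10 and 2.27 CPM in kidney RNA-seq. Kidney tubule and glomerulus markers summed to at most 1.10 CPM in brain RNA-seq, but to as much as 11.3 CPM in brain Ribo-seq, in KO library 1. WT library 2 of brain Ribo-seq was the shallowest brain footprint library. WT library 3 and KO library 1 of brain RNA-seq stood apart from the other 4 in how reads lay along the channel transcripts, as described below.

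In WT brain, the 3 sodium channels had the most footprints of the 9 per unit length. In the Ribo-seq libraries, Scn2a led with 24.9 ± 3.48 CPM per kb of coding sequence (SD, n = 3), followed by Scn8a with 19.8 ± 2.26 and Scn1a with 16.4 ± 4.03. The Cav2 channels came next in the order Cacna1e (11.6 ± 2.29), Cacna1a (8.06 ± 2.23) and Cacna1b (4.75 ± 0.964), and the T-type Cacna1g (3.70 ± 0.756) and the L-type Cacna1c (3.67 ± 0.269) lay level with each other. Cacna1d was lowest at 1.48 ± 0.394, and it was the only gene whose 3 libraries all lay below those of its upper neighbour, Cacna1c. Every other pair of neighbours in this order overlapped in range. The RNA order, in CPM per kb of transcript, began with the same genes, Scn2a (7.83 ± 0.883) and Scn8a (7.60 ± 0.740), had Cacna1a before Scn1a (4.63 ± 0.687), and ended with Cacna1d (0.764 ± 0.232) and Cacna1c (0.507 ± 0.142). A gap without overlap separated Scn8a from Cacna1a (5.45 ± 1.04) and Cacna1e (3.75 ± 0.457) from Cacna1b (1.16 ± 0.467). Part of the RNA order depends on the transcript chosen, because the representative transcripts of Cacna1b and Cacna1c hold 195 and 0 bases of 3′ UTR whereas that of Cacna1e holds 7662.

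All 9 genes were higher in WT brain than in WT kidney in both assays, by the quasi-likelihood F-test of edgeR, with p-values adjusted over all transcripts (Benjamini-Hochberg). This is read against the 64.1% of all tested transcripts that differed between the tissues in RNA and the 70.9% that differed in footprints, of which those higher in brain made up 35.8% of all tested transcripts in RNA and likewise 35.8% in footprints. Members with few kidney reads, among them Scn1a, Scn2a, Scn8a and Cacna1b, passed the filter on low counts through their brain libraries. For these genes a higher level in brain was fixed in advance, so their calls add little to the read counts themselves. Among the sodium channels, Scn2a had 3, 2 and 9 RNA reads in the WT kidney libraries and 7138, 5962 and 6697 in the WT brain libraries, a log2 fold change of 9.26 (SE 0.35, adjusted p = 1.3e-08). Scn8a differed by 9.38 (SE 0.37). For Scn1a the 3 WT kidney RNA libraries held 1 read in all, and the ratio of the pooled CPM was 4840 with a 95% counting interval of 869 to 191000 (exact Poisson, counting error only). Cacna1b had 0 reads in all kidney RNA libraries of both genotypes, and with a floor of 3 counts over the WT group its RNA was at least 348-fold higher in brain.

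In RNA, the remaining calcium channels showed smaller tissue differences. The log2 fold change in RNA was 8.11 (SE 0.46) for Cacna1e, 5.55 (SE 0.26) for Cacna1g, 5.52 (SE 0.25) for Cacna1a, 3.01 (SE 0.42) for Cacna1c and 2.74 (SE 0.38, adjusted p = 1.1e-04) for Cacna1d. Footprints followed a similar range, from 9.89 (SE 0.37) for Scn1a to 2.88 (SE 0.25) for Cacna1d, but in another order. There Cacna1e at 7.55 (SE 0.30) lay above Scn8a at 7.36 (SE 0.22) and Cacna1b at 5.93 (SE 0.27). Kidney footprints of the neuronal channels were low but not absent, and the 9 genes together had between 72 and 189 footprint reads in WT kidney libraries, or between 4.84 and 6.90 CPM, against between 483 and 661 CPM in WT brain. Neuron markers in the same WT kidney Ribo-seq libraries summed to between 6.61 and 8.88 CPM, with none of the 8 at 0, against at most 1.87 CPM in WT kidney RNA-seq. The part that these neuronal footprints play in the kidney values was not tested.

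**Figure D1:**
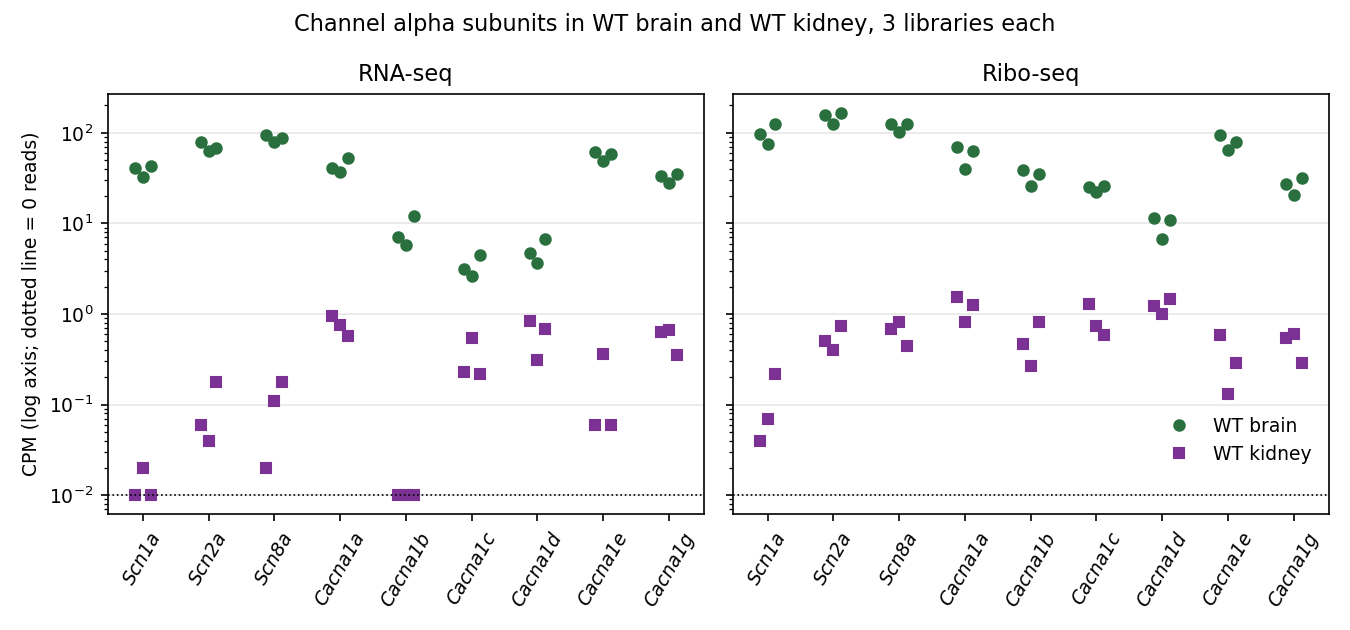
CPM of the 9 channel genes in the 3 WT brain libraries (circles) and the 3 WT kidney libraries (squares) of RNA-seq (left) and Ribo-seq (right), each point a library, on a log axis whose dotted line stands for 0 reads. Every brain point lies above every kidney point of the same gene, and Cacna1b has 0 RNA reads in all 3 kidney libraries.

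Cacna1d, the L-type gene with the smallest tissue difference, depended on which of its transcripts was read. The representative, Cacna1d-207, had 43, 16 and 34 RNA reads in the WT kidney libraries, whereas Cacna1d-202 had 2639, 2734 and 2144. Cacna1d-202 ends in a 3′ stretch of 587 bases (chr14:30039941-30040527, GRCm38) that also belongs to exons of Chdh, a choline dehydrogenase gene on the opposite strand, and Chdh itself had between 3731 and 5165 reads there. Cacna1d-201, which shares 88 bases with Chdh, had 843, 938 and 560 WT kidney RNA reads. Cacna1d-208 and Cacna1d-209 share 88 bases as well, with 330, 424 and 275 reads and with 61, 38 and 40 reads. Whether the counting used strand is not given in the sources used here. Without strand, reads on the shared stretches cannot be told apart. The part of Chdh reads in the Cacna1d counts was not tested. With counts summed over all transcripts of a gene, Cacna1d RNA was higher in kidney, with a log2 fold change of brain over kidney of -1.44 (adjusted p = 2.5e-05, edgeR). The footprint difference kept its direction with summed counts, at 2.39 (adjusted p = 8.6e-06, edgeR), and kidney footprints on Cacna1d-207 numbered 34, 15 and 20.

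The main question was whether these long neuronal messages change when ribosomes lack RPL41. In the brain, none of the 9 genes passed the test in RNA, footprints or TE. By edgeR's quasi-likelihood test, 0 of 9 were called in RNA, where 0.0134% of all transcripts were called, 0 of 9 in footprints, where 0.0345% were called, and 0 of 9 in TE, where 0% were called. One gene in RNA (Scn8a), 1 in footprints (Cacna1e) and 0 in TE had an unadjusted p below 0.05. Over all transcripts, 3087 of 89237 did so in RNA, 10214 of 81112 in footprints and 4677 of 98861 in TE. DESeq2 also called 0 members in each comparison, where it called 23, 388 and 18 transcripts. With so few calls among all transcripts, these counts hold little information about the channels in particular, and the size and interval of each estimate say more.

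Among the sodium channels, Scn8a had the largest RNA estimate. Its RNA was 95.5, 78.6 and 86.6 CPM in the WT libraries and 93.8, 112.3 and 125.7 CPM in the KO libraries, so that KO libraries 2 and 3 lay above all WT libraries and KO library 1 did not. The log2 fold change was 0.35 (SE 0.14, 95% interval 0.02 to 0.68, adjusted p = 0.90, edgeR). Its footprints were 126.2, 102.6 and 125.6 CPM in WT and 134.5, 144.5 and 137.6 CPM in KO, without overlap, a log2 fold change of 0.23 (interval -0.01 to 0.47, adjusted p = 0.41, edgeR).

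Scn2a had similar values to Scn8a in both assays. Its RNA was 78.6, 63.3 and 68.0 CPM in WT and 76.1, 83.6 and 90.6 CPM in KO, and the ranges overlapped through KO library 1 (log2 fold change 0.25, SE 0.13). Its footprints were 155.9, 126.4 and 166.8 CPM in WT and 172.0, 184.0 and 177.0 CPM in KO, again with each KO library above each WT library (log2 fold change 0.25, SE 0.12, interval -0.01 to 0.50). The Nav1.1 gene Scn1a, the main sodium channel of many inhibitory interneurons, varied more between WT libraries. Footprints of Scn1a were 97.3, 75.3 and 123.9 CPM in WT and 109.0, 113.3 and 116.3 CPM in KO, all 3 KO values inside the WT range (log2 fold change 0.19, SE 0.15). Its RNA was 38.8 ± 5.76 CPM in WT and 40.7 ± 2.89 CPM in KO (SD, n = 3 each), a log2 fold change of 0.07 (SE 0.14).

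The Cav2 channels of nerve endings had footprint estimates of the same sign. Cacna1e, the R-type gene, had 95.2, 63.9 and 79.2 footprint CPM in WT and 96.9, 111.1 and 101.6 in KO, with no overlap. Its log2 fold change of 0.37 was the largest footprint estimate of the 9 (SE 0.14, interval 0.08 to 0.67, adjusted p = 0.31, edgeR). Footprints of the P/Q-type gene Cacna1a were 69.7, 39.5 and 62.5 CPM in WT and 69.9, 71.6 and 70.5 CPM in KO, a separation that WT library 1 and KO library 1 barely keep (log2 fold change 0.29, SE 0.16). The N-type gene Cacna1b had 38.8, 25.7 and 35.1 footprint CPM in WT and 40.5, 40.5 and 39.6 in KO (log2 fold change 0.26, SE 0.13). WT library 2 was the lowest of the 3 WT libraries for each of these genes, and the KO libraries lay closer together than the WT libraries.

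In RNA, the Cav2 genes showed no common direction. The log2 fold change was 0.17 for Cacna1e (SE 0.13), 0.05 for Cacna1a (SE 0.15) and -0.16 for Cacna1b (SE 0.28). The wide error of Cacna1b came with 12.1 CPM in WT library 3 and 9.45 CPM in KO library 1, whereas the other 4 libraries lay between 5.72 and 7.13 CPM. The same libraries were highest for Cacna1a, with 52.4 CPM in WT library 3 and 46.9 CPM in KO library 1 of a range that began at 36.5 CPM.

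Among the L-type and T-type channels, Cacna1d and Cacna1g had footprint estimates near 0. Cacna1c, the main L-type gene of brain, had 25.3, 22.4 and 25.6 footprint CPM in WT and 25.8, 30.2 and 28.4 in KO, so that the groups separated only between 25.6 and 25.8 (log2 fold change 0.20, SE 0.11). Cacna1d had 11.4, 6.70 and 10.8 footprint CPM in WT and 9.61, 10.0 and 9.97 in KO, with the KO values inside the WT range (log2 fold change -0.01, SE 0.16). Cacna1g had 26.5 ± 5.40 footprint CPM in WT and 26.8 ± 2.05 in KO (SD, n = 3 each), a log2 fold change of 0.01 (SE 0.14). The interval for Cacna1g ran from -0.29 to 0.31 and that for Cacna1d from -0.36 to 0.34, so changes within these bounds remain compatible with the data. RNA of both L-type genes was again highest in WT library 3 and KO library 1, with log2 fold changes of -0.21 for Cacna1c (SE 0.27) and -0.23 for Cacna1d (SE 0.23), and Cacna1g RNA gave 0.01 (SE 0.13).

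**Figure D2:**
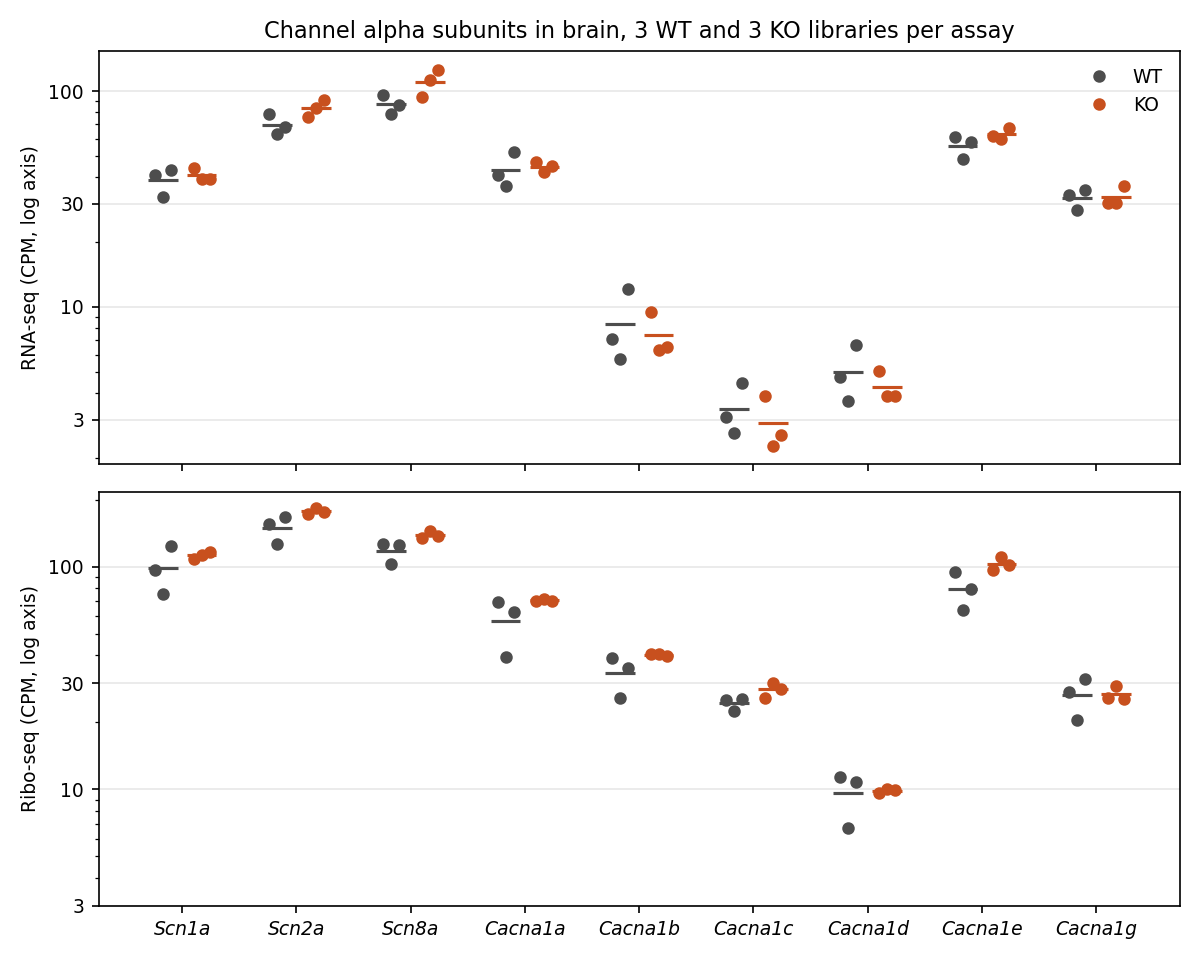
CPM of the 9 channel genes in brain RNA-seq (top) and Ribo-seq (bottom), on log axes, with a point for each of the 3 WT (grey) and 3 KO (orange) libraries and a bar at their mean. In Ribo-seq the 3 KO points lie above the 3 WT points for Scn2a, Scn8a, Cacna1a, Cacna1b, Cacna1c and Cacna1e, while in RNA-seq the groups overlap for every gene.

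Over the 9 genes, footprint estimates lay above 0 for 8, with a median log2 fold change of 0.23 beside -0.01 over all transcripts tested. Each KO footprint library exceeded each WT library for 6 of the 9 genes and lay below each for 0, where the shares over all tested transcripts were 9.4% and 8.7%. The genes share the same 6 libraries and so are not independent counts of this direction. Without WT library 2, which held the lowest footprint value of all 9 genes among the WT libraries, the estimates ran from -0.17 to 0.25 with a median of 0.13. In RNA, 6 of 9 estimates lay above 0 with a median of 0.05, beside -0.02 over all transcripts. With 1 transcript per gene, as the members were chosen, the 15731 tested genes had a median RNA value of 0.10 with 68.9% above 0. The members' RNA median lay below this background. Scn8a (0.35) and Scn2a (0.25) lay above its upper quartile of 0.21. Cacna1b (-0.16), Cacna1c (-0.21) and Cacna1d (-0.23) lay below its lower quartile of -0.04. The 14465 genes tested in footprints had a median of -0.03 with 45.6% above 0. In RNA no gene had groups without overlap, where 5.08% of transcripts had each KO library above each WT library and 4.43% below. As a frame for their length, the 495 genes with a protein of at least 1900 residues that were tested in footprints had a median log2 fold change of 0.14, with quartiles of -0.08 and 0.29, and 0 of them were called by edgeR in the fit over all transcripts. Of these long genes, 66.9% lay above 0 in footprints. In RNA the 496 such genes had a median of -0.07 with 32.3% above 0.

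**Figure D3:**
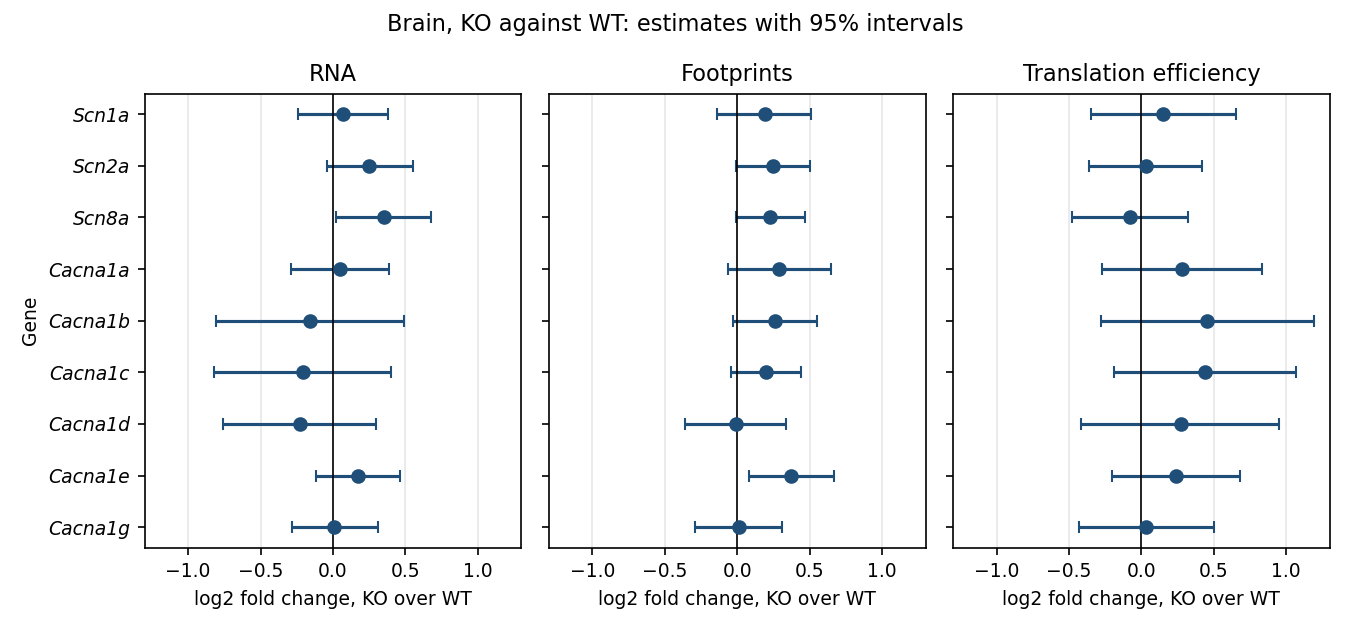
Log2 fold changes of KO over WT in brain for RNA, footprints and translation efficiency of the 9 genes, with 95% intervals from edgeR (3 libraries per genotype and assay). Intervals lie wholly above 0 for Scn8a in RNA (0.02 to 0.68) and Cacna1e in footprints (0.08 to 0.67), neither of which passed adjustment over all transcripts, and every TE interval includes 0.

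TE was tested in 1 model over the 12 brain libraries, as the interaction of assay and genotype. The estimate was highest for Cacna1b at 0.45 (SE 0.34, interval -0.28 to 1.19) and Cacna1c at 0.44 (SE 0.30, interval -0.19 to 1.07), but without RNA-seq WT library 3 these came to 0.09 and 0.20, both below Cacna1e at 0.22. In the fit to all libraries Cacna1a followed with 0.28 (SE 0.26), Cacna1d with 0.27 (SE 0.32), Cacna1e with 0.24 (SE 0.20) and Scn1a with 0.15 (SE 0.23). For Scn2a and Cacna1g the value was 0.03 each (SE 0.18 and 0.22), and Scn8a alone lay below 0, at -0.08 (SE 0.18, interval -0.48 to 0.32). The adjusted p was at least 0.89 for all 9 by edgeR. Their median of 0.24 stood beside 0.03 over all transcripts and 0.25 over the 525 tested genes with proteins of at least 1900 residues, close to the median of the long proteins. Over all 16721 genes with 1 transcript each it was -0.09. The members' median came to 0.07 without RNA-seq WT library 3 (7 of 9 above 0) and likewise to 0.07 without Ribo-seq WT library 2 (5 of 9 above 0). Over all transcripts, 4677 had an unadjusted p below 0.05, and DESeq2 called 18.

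The RNA counts of most of these genes lay mainly on stretches that their shortest full-length transcripts lack. For 7 of the 9 genes the annotation holds both a transcript of nearly coding length with a full-length protein and one at least 1500 bases longer, which for Cacna1d is annotated with a shorter protein and overlaps Chdh. Summed over these 7 genes, the short transcripts held between 15.6% and 26.8% of the RNA count of the long ones, although footprints on them made up between 96.2% and 97.2%. Cacna1e was the most uneven, since its 6765-base transcript took between 1.5% and 5.8% of the RNA reads of the 14921-base transcript and between 90.1% and 93.5% of the footprints. In Scn8a the 5814-base transcript took between 7.2% and 19.8% of the RNA reads of one of 11436 bases. The libraries were not alike in this share. WT library 3 had 26.8% and KO library 1 had 22.4%, while the other 4 RNA libraries lay between 15.6% and 17.3%.

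**Figure D4:**
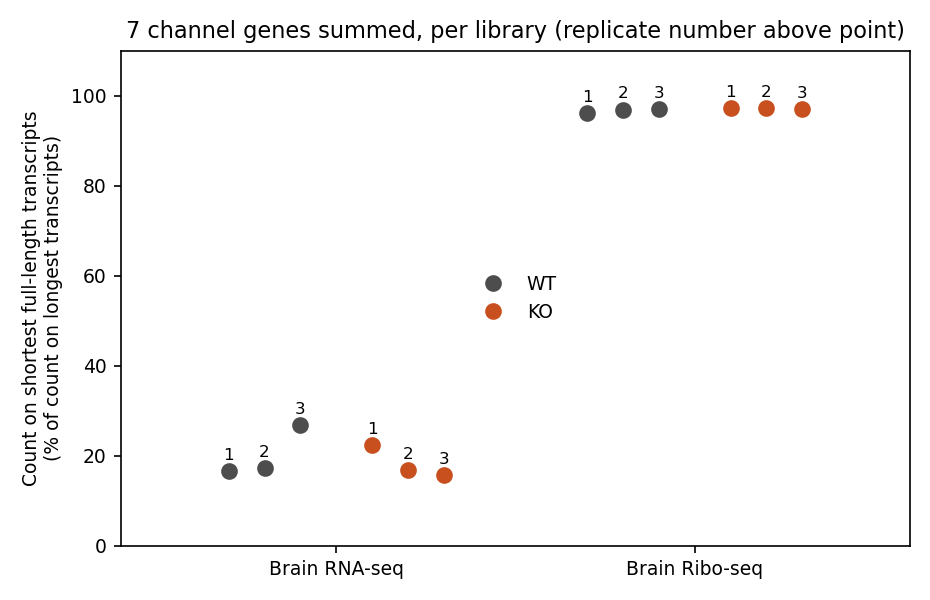
Count on the shortest transcripts with a full-length protein as a percentage of the count on the longest transcripts, summed over 7 channel genes, in each brain library of RNA-seq (left) and Ribo-seq (right), with the replicate number above each point. WT library 3 (26.8%) and KO library 1 (22.4%) stand above the other RNA-seq libraries, and all Ribo-seq libraries lie between 96.2% and 97.2%.

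The sign of the RNA estimate depended on the transcript for 5 of the genes. On the short full-length transcripts the RNA log2 fold change became -0.22 for Scn1a, -0.10 for Scn8a and -0.19 for Cacna1e, from 0.07, 0.35 and 0.17 on the representatives, and for Scn2a it was 0.40. The footprint estimates of the same genes moved by at most 0.03. Accordingly TE on the short transcripts was 0.60 for Cacna1e, 0.43 for Scn1a, 0.37 for Scn8a and -0.13 for Scn2a, and no member was called in either form. When the transcript with the longest sequence stood for each gene, the RNA estimates of Cacna1b and Cacna1c were 0.04 and 0.05 and their TE estimates 0.26 and 0.17. With brain RNA-seq WT library 3 and KO library 1 both left out, which leaves 2 libraries a genotype, edgeR called Scn8a RNA at a log2 fold change of 0.44 among 9281 called transcripts of 88360 tested. In TE that choice gave 0 called members among 1652 called transcripts of 91879 tested.

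**Figure D5:**
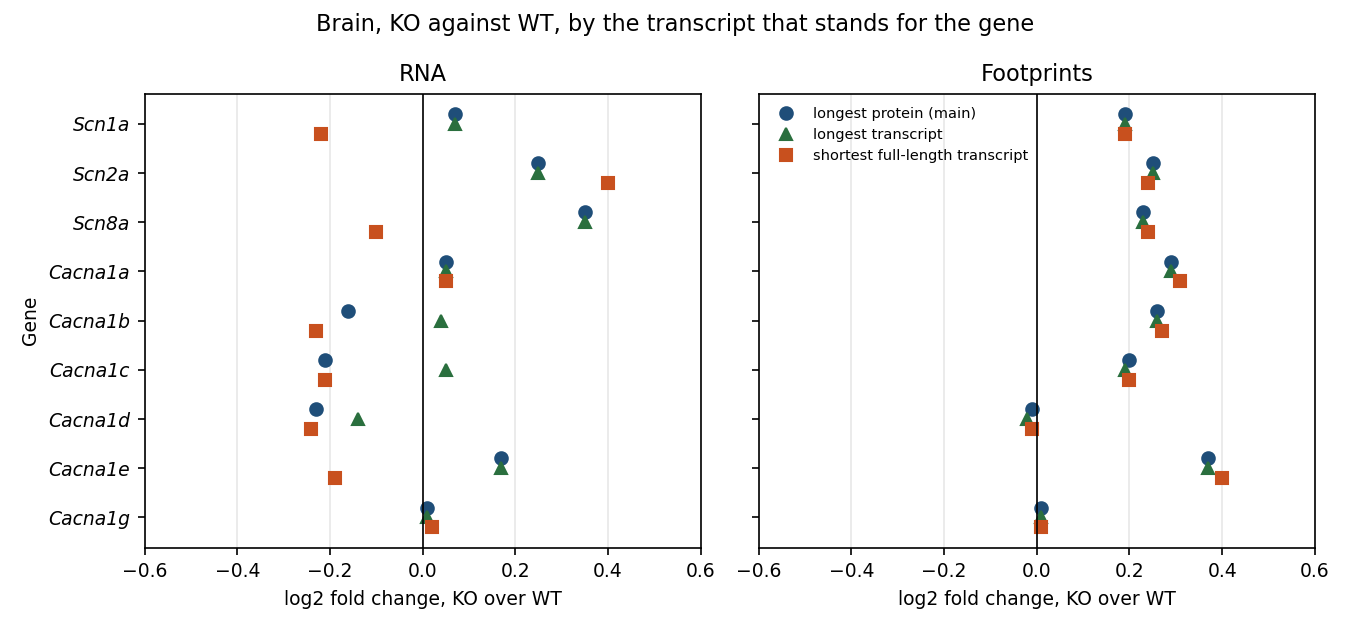
Log2 fold changes of KO over WT in brain RNA (left) and footprints (right) when a gene is represented by the transcript with the longest protein (circles), the longest transcript (triangles) or the shortest transcript with a full-length protein (squares). RNA values of Scn1a, Scn8a, Cacna1b, Cacna1c and Cacna1e change sign between these choices, whereas the 3 footprint values of each gene nearly coincide.

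The partners and relatives of the 9 genes were described from 8 lists of 41 genes. None was called in brain by edgeR or DESeq2 in RNA (37 tested, 1 with unadjusted p below 0.05), footprints (38 tested, 3) or TE (40 tested, 4). Over all transcripts, 3087 of 89237 in RNA, 10214 of 81112 in footprints and 4677 of 98861 in TE had an unadjusted p below 0.05. List medians ran from -0.04 to 0.27 in RNA and from -0.16 to 0.22 in footprints. The other sodium channel alpha subunits had a median footprint log2 fold change of 0.22 over 7 genes, and the alpha2delta subunits, which carry calcium channels to the membrane, 0.21 over 4, led by Cacna2d2 at 0.32 (SE 0.15). Nalcn, the sodium leak channel of similar domain plan, gave 0.40 (SE 0.12, adjusted p = 0.25, edgeR) in footprints and 0.20 (SE 0.14) in RNA. Calcium channel beta subunits had a footprint median of -0.14 with Cacnb3 at -0.22 (SE 0.11), and gamma subunits and TARPs, which include AMPA receptor partners, had -0.16 with Cacng7 at -0.40 (SE 0.12, adjusted p = 0.25, edgeR). In TE the list medians were -0.36 for the gamma subunits, -0.05 for the calcium channel beta subunits and 0.24 for the other sodium channel alpha subunits. The last median covers 7 genes, of which only 4 passed the filter in RNA. It includes Scn4a at 3.25 (SE 1.02, not called), whose WT brain RNA was 0.00314 CPM per kb of transcript. Sodium channel beta subunits gave medians of 0.27 in RNA and 0.06 in footprints. Anchors and FGF homologous factors, with ankyrin G (Ank3) among them, gave -0.01 and -0.09.

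Markers of brain cell types were examined beside these values. Of 12 marker lists with 70 genes, none had a gene called by edgeR in brain RNA (65 tested, 14 with unadjusted p below 0.05), footprints (63 tested, 15) or TE (67 tested, 8). Over all transcripts, 3087 of 89237 in RNA, 10214 of 81112 in footprints and 4677 of 98861 in TE had such a p. DESeq2 called 2 of the marker genes in RNA, beside 23 of all transcripts. Neuron markers had a median log2 fold change of 0.23 in RNA and -0.03 in footprints, excitatory markers 0.07 and -0.02, inhibitory markers 0.28 and -0.06, cerebellar markers 0.25 and 0.14, and striatal markers 0.24 and -0.15. In glia, the medians were 0.22 and 0.15 for astrocytes, 0.12 and -0.09 for oligodendrocytes and 0.19 and 0.03 for microglia. Endothelial markers had -0.67 in RNA and -0.82 in footprints, and their summed RNA was between 23.9 and 37.2 CPM in WT and between 15.2 and 23.7 CPM in KO. Their summed footprints overlapped, with between 31.9 and 53.5 CPM in WT and between 23.9 and 37.4 CPM in KO. Smooth muscle and pericyte markers had -0.95 and -0.49, and choroid plexus markers 0.02 and -0.05. Kidney markers, of which 3 could be tested in brain RNA, had -0.30. Endothelial markers were not alone in separate RNA sums. The RNA sums of astrocyte, microglia and choroid plexus markers were higher in every KO than in every WT library, with astrocyte markers between 305 and 322 CPM in WT and between 361 and 379 CPM in KO. Those of smooth muscle and pericyte markers were lower in every KO library, and the RNA sums of all other lists overlapped. The neuron marker sum did not separate the genotypes in footprints (between 1550 and 1960 CPM in WT, between 1640 and 1740 in KO), and in WT it was highest in library 2, where the channel footprints were lowest. The part of cell composition in the channel values was not tested, and in whole brain, fewer cells of a type and less RNA per cell cannot be told apart.

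In the kidney, where these genes are a background, few could be tested. In RNA, 5 of 9 passed the filter on low counts and 0 were called, where 0.00992% of all transcripts were called. In footprints, 4 of 9 passed and 0 were called, where 7.76% were called, and in TE 0 of 8 were called, where 0% were called. The 8 in TE include Cacna1b, which had 0 kidney RNA reads and so no RNA count to set its footprints against. They also include Scn2a and Scn8a, which passed the filter neither in kidney RNA alone nor in kidney footprints alone. For these genes the absence of a TE call holds no information. The members with an unadjusted p below 0.05 numbered 0 of 5 in RNA, 2 of 4 in footprints and 0 of 8 in TE. Over all transcripts such p-values numbered 11881 of 70545 in RNA, 19064 of 75266 in footprints and 16939 of 89685 in TE. DESeq2 called 0 of the members in each, while over all transcripts it called 465 in RNA, 3497 in footprints and 4089 in TE. The RNA estimates carried wide errors, from -0.83 (SE 0.99) for Cacna1c to 0.82 (SE 0.51) for Cacna1d, which had 43, 16 and 34 reads in WT and 39, 62 and 45 in KO. Cacna1a had 42, 12 and 17 footprint reads in WT kidney and 10, 37 and 16 in KO, or 1.53, 0.81 and 1.25 CPM against 0.99, 0.86 and 0.41 CPM with overlap, a log2 fold change of -0.83 (SE 0.35, adjusted p = 0.15, edgeR). Cacna1c gave the same estimate of -0.83 (SE 0.33, adjusted p = 0.14). Cacna1d had -0.25 (SE 0.28) and Cacna1g -0.21 (SE 0.37). The summed kidney footprints of the 9 genes were between 4.84 and 6.90 CPM in WT and between 3.26 and 4.45 CPM in KO, on between 33 and 191 reads a library. This sum includes the genes that did not pass the filter, and its difference between the genotypes was not tested.

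Whether brain and kidney responded differently was tested by the interaction of tissue and genotype. In RNA 0 of 9 were called, where 0.00108% of transcripts were called, and in footprints 0 of 9, where 0.0767% were called. In RNA 0 of 9 had an unadjusted p below 0.05, beside 7862 of 92865 transcripts. Scn1a, Scn2a, Scn8a and Cacna1b had not passed the filter in kidney RNA alone and entered the RNA fit through their brain counts. Cacna1b had 0 kidney RNA reads in either genotype, and Scn1a had 1 in WT and 0 in KO, so their RNA terms could not show a difference. Only 4 of the genes had passed the filter in kidney footprints alone, and the other 5 entered the footprint fit through their brain counts. For those 4 the footprint term (brain response minus kidney response) was 1.14 (SE 0.42) for Cacna1a, 1.05 (SE 0.32, adjusted p = 0.37, edgeR) for Cacna1c, 0.23 (SE 0.34) for Cacna1d and 0.22 (SE 0.42) for Cacna1g. Over the 9 genes, 5 terms had an unadjusted p below 0.05, beside 6765 of 88666 transcripts, and 3 of these 5 (Scn2a, Scn8a and Cacna1b) belong to genes that did not pass the kidney filter. Scn8a (1.39, SE 0.40), for example, had 19, 12 and 6 kidney reads in WT and 3, 18 and 6 in KO. DESeq2 called 0 of the 9 in either assay, beside 105 transcripts in RNA and 216 in footprints.

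The genes whose pattern over the 12 brain libraries was most like the mean of the 9, by the root mean square difference of log2 CPM centred within each assay among 13952 genes, were Ptk7 (0.054), Plxna2 (0.056), Abca2 (0.058), Tmem131 (0.059) and Abca3 (0.061). The members themselves lay between 0.084 (Scn1a) and 0.185 (Cacna1c) from their own mean. The 5 encode membrane proteins of between 1062 and 2433 residues.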

How the data were processed

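Mouse libraries were taken from a table in which the authors deposited raw read counts per transcript, without normalization. Per the submitters' processing notes and the study's methods, adaptors were trimmed with cutadapt, rRNA reads were removed, reads were aligned with STAR to mm10 with multimapping allowed and counted with featureCounts of Subread, and the versions and the strand setting are not given in the sources used here. All 30 columns carry a sample's title, of which 24 were tested and 6 (kidney disome-seq) described. A further table lists human transcripts under 28 columns with mouse titles and was not used.

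Transcripts were joined to GENCODE M21 by identifier (141374 of 142604 matched). The 9 members and all lists were chosen with earlier results of these data known. KO was compared with WT within each tissue and assay by edgeR 4.0.16 (R 4.3.3), with filterByExpr, TMM scaling, the quasi-likelihood F-test and Benjamini-Hochberg adjustment over all transcripts at 0.05. WT brain and WT kidney were compared with tissue as the only term. TE and the difference between brain and kidney in the response to KO were interaction terms. The TE term replaced RiboDiff, which was not at hand. Standard errors were derived as |log2 fold change| divided by √F. Against a kidney group with 0 reads a fold is a bound from a floor of 3 counts over the group, and against 1 to 3 reads it is the pooled ratio with its counting interval, and no fitted folds against such groups are printed. Levels between genes are CPM per kb. All members were named, and from each other list up to 3 called genes, or those with the largest rise and fall; other genes named were chosen after their values were seen. Proteins were aligned with mafft 7.526. The brain fits and the footprint fit between tissues were tested on simulated counts with a fixed spread between libraries. That setting does not hold the uneven brain RNA-seq libraries. No 2 libraries were identical.

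Alternatives were DESeq2 1.42.0, library size alone, other filters, counts summed per gene, 1 transcript per gene, a replicate block and each library left out, and, chosen after seeing the data, other transcripts per gene and the removal of 2 brain RNA-seq libraries. Deviations of WT RNA-seq libraries of the same number in brain and kidney correlated at 0.21, 0.18 and 0.51, and of KO libraries at 0.40, 0.27 and 0.23. By the rule that follows these numbers count as paired, but the tissue fits printed above carry no block, and their errors ignore any pairing. WT and KO brain RNA-seq libraries of number 2 come from different mice and correlated at 0.52. The rule therefore does not establish a pairing. Numbers count as paired where each correlation is over 0.1. The labels state no pairing. WT kidney RNA-seq and Ribo-seq libraries of a number also passed, at 0.11, 0.12 and 0.15, but the KO kidney libraries did not, at 0.06, 0.08 and 0.06, and no other comparison passed throughout. Depth and the spread between libraries both enter the standard errors, while intervals named as counting intervals, and floors, cover counting error only.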

Additional observations from a re-analysis of the deposited data

Results flagged for a closer look

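Kidney disome-seq, which sequences fragments under a pair of stacked ribosomes, was left out of the comparisons because the 9 genes had at most 14 reads in any library. Cacna1d was the only one of the 9 with more than 3 KO reads in all whose KO libraries each lay above each WT library. For Cacna1d, an L-type gene, the KO libraries had 14, 11 and 4 disome reads and the WT libraries 10, 8 and 4. Scaled to the library totals, the mean was 5.01 CPM in KO and 3.06 CPM in WT, with 3.37 CPM in the lowest KO library and 3.32 CPM in the highest WT library. Over all transcripts with more than 3 KO reads in all, 5.61% separated in this direction. Other members went the other way or overlapped, with Cacna1a at 9, 8 and 3 reads in WT and 6, 3 and 3 in KO and Cacna1c at 5, 8 and 0 in WT and 2, 1 and 0 in KO. The difference was not tested. Cacna1d footprints in the kidney were not called (log2 fold change -0.25, SE 0.28).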

How the results depend on the processing

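The number of members called was 0 in each KO comparison and 9 in each tissue comparison under every alternative run, with these exceptions. With brain RNA-seq WT library 3 and KO library 1 both left out, 1 member (Scn8a) was called in brain RNA. With at least 10 counts in every library, 4 members in RNA and 2 in footprints could still be tested and were called between WT brain and WT kidney. With the longest transcript of each gene, 8 were called in RNA, since Cacna1d came to 0.34. Counts summed per gene reversed Cacna1d RNA to -1.44. Of 477 member estimates in the brain comparisons under alternatives, 457 moved by less than their standard error, 19 moved by more without a call, and 1 became a call. Leaving out WT library 3 turned the brain RNA estimate of Cacna1b from -0.16 to 0.21 and of Cacna1d from -0.23 to 0.03, and leaving out WT library 2 took the footprint estimate of Cacna1a from 0.29 to 0.10 and of Scn1a from 0.19 to 0.03. Over all leave-one-out fits the members' median lay between -0.06 and 0.20 in RNA, 0.13 and 0.30 in footprints and 0.07 and 0.40 in TE. On the short full-length transcripts the RNA median was -0.19.

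A replicate block changed no member's call (0 of 9 in brain RNA, footprints and TE, and 9 of 9 between tissues). Brain numbers did not pair WT with KO libraries, with correlations of -0.70, 0.52 and -0.62 in RNA-seq. The block gave 80 called transcripts in brain footprints, where the fit without it gave 28 and DESeq2 gave 388, no filter beyond 1 count gave 1573 and at least 10 counts in every library gave 0. In brain RNA these counts were 11, 12, 23, 12 and 0. Over all transcripts, leaving out 1 library gave between 11 and 16 calls in brain RNA, 15 and 79 in brain footprints, 0 and 10 in brain TE, 7 and 12466 in kidney RNA, 285 and 5843 in kidney footprints, 0 and 16331 in kidney TE and 0 and 6444 in the RNA tissue by genotype term. The cause was not tested. The fewest reads lay behind Cacna1d in brain footprints, with as few as 62 in a library, and behind the kidney values, with 0 to 62 reads of a member in a library.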
